A study of Mus musculus with 6 samples.

Results

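The mature myelin genes described here were 9 genes, Mbp, Mog, Mag, Mobp, Cnp, Mal, Cldn11, Ermn and Fa2h, taken by symbol from a table of read counts for 23284 genes. All 9 were found and all 9 passed the filter on low counts, which kept 15258 genes. RNA was taken from prefrontal cortex, and the mice were wild type on the inbred C57BL/6 background and had lived either alone (single-housed, 3 libraries) or with other mice (group-housed, 3 libraries) for 6 days before the tissue was taken. The animals were 8 to 10 weeks old by their age label, the growth label giving C57BL/6J mice of 8 weeks, and the housing was the 1 labelled difference between the groups. By its title the series is about social behaviour, neuronal connectivity and the cytokine interferon-gamma. Whether the 6 libraries stand for 6 separate mice is not stated in the labels, so the p-values measure a spread between libraries that may in part be technical. Cortical neuron genes were abundant in each library, but genes of striatal projection neurons, not typical of this tissue, differed between libraries. Summed over 21 such genes they were at 4243, 2178 and 952 CPM in single-housed replicates 1, 2 and 3, against 2114, 988 and 1108 CPM in group-housed replicates 1, 2 and 3 (CPM, counts scaled to library size by TMM). Results are therefore also given without single libraries, and the part of these cells in them was not tested.

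Myelin is the stack of glial membrane that insulates axons and speeds conduction. In the brain it is made by oligodendrocytes, which arise from dividing precursor cells, pass through a newly formed stage and then switch on a shared set of structural protein and lipid genes under the transcription factors Sox10 and Myrf. Mbp holds the cytoplasmic faces of the compacted membrane together, and Mobp encodes a smaller basic protein of compact myelin. Mog lies on the outermost surface of the sheath and Mag on the innermost one, facing the axon. Cnp encodes a cyclic nucleotide phosphodiesterase that keeps cytoplasmic channels open in the sheath, and Ermn encodes ermin, an actin-binding protein of the mature oligodendrocyte. Cldn11 forms the tight junctions between myelin layers, Mal encodes a membrane raft proteolipid, and Fa2h encodes the hydroxylase of the fatty acids used in myelin galactolipids.

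The start sites of these genes are shown with the core letters known for 2 regulators of the lineage. Whether these cores have a part in the variation between libraries described below was not tested. RefSeq promoter windows (build GRCm38.p6, 250 bases before to 50 after each start site) were used for 7 of the 9 genes. They had 9 start sites in all because Mag had 3. No window was found for Fa2h, and Mbp was left out of the member windows, so the member counts below cover neither gene. Capitals mark the core bound by SOX proteins (ACAAAG or ACAATG) and the core described for MYRF (CTGGCAC or CTGGTAC), searched on both strands, so that CTTTGT and GTACCAG are matches on the other strand. No matches overlapped in the windows printed.
Mobp (chr9:120149492-120149791, plus strand): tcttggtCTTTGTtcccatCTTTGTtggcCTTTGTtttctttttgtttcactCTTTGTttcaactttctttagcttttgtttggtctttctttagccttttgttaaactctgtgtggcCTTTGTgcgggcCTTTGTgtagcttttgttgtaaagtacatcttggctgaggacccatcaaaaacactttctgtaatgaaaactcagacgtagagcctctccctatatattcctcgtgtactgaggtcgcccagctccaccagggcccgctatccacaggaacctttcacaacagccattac
Cnp (chr11:100574689-100574988, plus strand): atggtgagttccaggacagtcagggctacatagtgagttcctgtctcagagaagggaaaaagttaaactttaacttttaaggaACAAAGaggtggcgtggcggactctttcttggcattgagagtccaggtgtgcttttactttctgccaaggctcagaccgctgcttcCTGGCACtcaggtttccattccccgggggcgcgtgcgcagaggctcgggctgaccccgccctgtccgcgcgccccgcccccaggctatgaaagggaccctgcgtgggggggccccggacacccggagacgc
Mag (chr7:30914873-30915172, minus strand): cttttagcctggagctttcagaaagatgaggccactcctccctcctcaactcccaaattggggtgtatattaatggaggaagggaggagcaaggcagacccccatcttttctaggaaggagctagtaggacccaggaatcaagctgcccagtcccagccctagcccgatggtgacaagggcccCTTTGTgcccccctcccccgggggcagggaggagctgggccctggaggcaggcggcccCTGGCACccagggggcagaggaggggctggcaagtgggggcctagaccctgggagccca
Mog (chr17:37023349-37023648, minus strand): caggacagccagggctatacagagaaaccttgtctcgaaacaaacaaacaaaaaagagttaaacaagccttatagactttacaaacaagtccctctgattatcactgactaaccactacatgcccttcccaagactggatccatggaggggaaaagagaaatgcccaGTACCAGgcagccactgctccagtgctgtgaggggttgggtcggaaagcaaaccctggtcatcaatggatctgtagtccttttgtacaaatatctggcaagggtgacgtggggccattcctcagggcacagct
The Mobp window held 6 matches to the SOX core, 243 to 120 bases upstream of the start site, in a stretch of repeated CTTTGT words. In the Cnp window a SOX core lay 167 bases and a MYRF core 81 bases upstream. The Mag window shown had a SOX core 67 bases and a MYRF core 9 bases upstream, and the Mog window had a MYRF core 83 bases upstream and no SOX core. Over all windows, a SOX core was present in 5 of the 9 member windows (4 of 7 genes) and in 28.6% of the 32851 RefSeq windows. A MYRF core was present in 4 of the 9 (3 of 7 genes) and in 7.1% of the 32851. The Mag windows starting at 30914873 and 30914814 overlapped and held the same SOX and MYRF cores, which the window counts include for each. Mal, Cldn11 and the Mag window starting at 30914272 held neither core. The matches describe letters in a window and were not tested as binding sites.

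Of the 9 genes, Mbp had the highest level per length of exon. Its mean over the 6 libraries was 164 RPKM (reads scaled to sequencing depth and to exon length), followed by Cnp at 141, Mag at 93.5, Mal at 84.9 and Cldn11 at 82.3 RPKM. Mog at 41.3, Mobp at 31.0, Fa2h at 16.9 and Ermn at 12.1 RPKM came after them. The order of neighbours was the same in 6 of 6 libraries for 7 of the 8 neighbouring pairs, and Mal was above Cldn11 in 5 of 6. Across libraries the ranges of each neighbouring pair overlapped, since the spread between libraries was larger than most steps in this order. The deposited coordinates (mm9) placed Mbp on chromosome 18 from 82644515 to 82755029, Cnp on chromosome 11 from 100436253 to 100443053, Mag on chromosome 7 from 31684202 to 31699851 and Mog on chromosome 17 from 37147685 to 37160343. Mobp lay on chromosome 9 from 120058860 to 120085209, Cldn11 on chromosome 3 from 31048842 to 31063248 and Fa2h on chromosome 8 from 113869038 to 113917721. Mal, from 127458962 to 127482431, and Ermn, from 57897526 to 57905163, were both on chromosome 2 but far apart, so the set was spread over 8 chromosomes. No exon of a member overlapped an exon of another gene in the table.

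The levels of the members differed up to 3.03-fold between libraries, and in each housing group there were high and low libraries. Mbp, the main cytoplasmic myelin protein, was at 1392, 1263 and 622 CPM in the single-housed libraries, replicates 1, 2 and 3 in that order, against 1738, 629 and 976 CPM in the group-housed libraries in the same order of replicates. Mobp was at 177, 159 and 69.2 CPM in the single-housed and at 210, 86.7 and 125 CPM in the group-housed libraries. For both genes group-housed replicate 1 was highest, single-housed replicate 3 and group-housed replicate 2 were lowest, and the groups overlapped.

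The surface and adaxonal glycoproteins had the same layout. Mog was at 84.3, 83.0 and 39.7 CPM in the single-housed libraries, against 111, 38.5 and 66.9 CPM in the group-housed libraries. Mag was at 283, 265 and 133 CPM in the single-housed libraries, against 351, 127 and 202 CPM in the group-housed libraries. In both, 2 single-housed libraries lay between group-housed replicates 1 and 3, and the third lay close to group-housed replicate 2.

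Among the genes of the cytoplasmic channels and the cytoskeleton, Cnp was at 444, 447 and 224 CPM in the single-housed and at 586, 212 and 348 CPM in the group-housed libraries. Ermn, the member with the lowest level per length, was at 51.6, 48.0 and 24.4 CPM in the single-housed and at 68.3, 25.6 and 36.9 CPM in the group-housed libraries. The groups overlapped for both, with group-housed replicate 1 highest. Cldn11, of the tight junctions, was at 175, 185 and 85.8 CPM in the single-housed libraries, against 244, 86.7 and 148 CPM in the group-housed libraries. Mal, the raft proteolipid, was at 262, 287 and 133 CPM in the single-housed and at 378, 126 and 229 CPM in the group-housed libraries. Cnp, Cldn11 and Mal were a little higher in single-housed replicate 2 than in replicate 1, unlike Mbp and Mobp. Fa2h, the lipid hydroxylase, was at 56.0, 49.0 and 22.2 CPM in the single-housed and at 66.3, 23.2 and 35.9 CPM in the group-housed libraries.

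**Figure D1:**
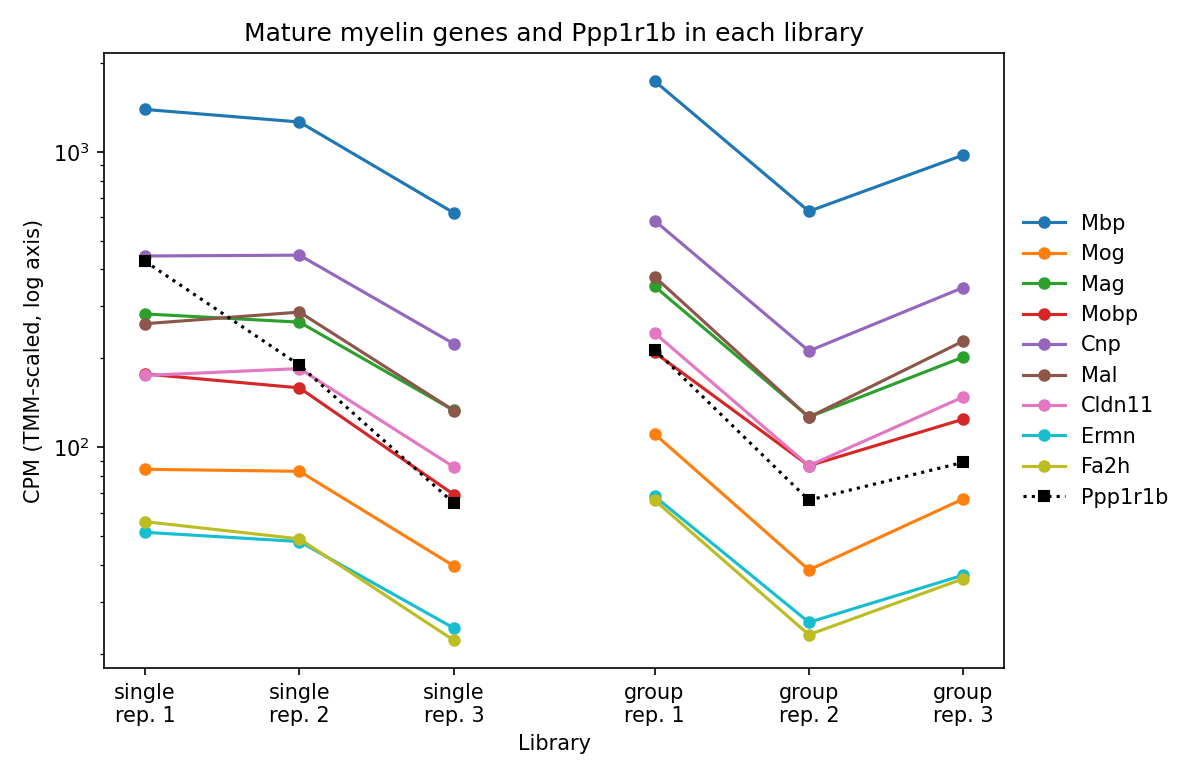
CPM on a log axis of each of the 9 mature myelin genes and of Ppp1r1b (vertical) in each of the 6 libraries (horizontal), 1 line per gene. The 9 myelin lines run nearly parallel, highest in group-housed replicate 1 and lowest in single-housed replicate 3 and group-housed replicate 2, while Ppp1r1b peaks in single-housed replicate 1.

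The libraries thus had nearly the same order for each member. Group-housed replicate 1 was highest for 9 of 9 genes, and for 9 of 9 group-housed replicate 3 lay below the 3 high libraries and above the 2 low ones. Within the high and low libraries the order varied, single-housed replicate 1 being above single-housed replicate 2 for 6 genes, and single-housed replicate 3 below group-housed replicate 2 for 5. Summed over the members, these genes took 0.291%, 0.281% and 0.135% of all counts in the single-housed libraries, against 0.386%, 0.134% and 0.213% in the group-housed libraries. In a bulk sample, fewer oligodendrocytes and less of these RNAs per oligodendrocyte cannot be told apart. Totals ran from 32902303 to 33428512 counts in the single-housed and from 25858355 to 32088512 in the group-housed libraries, group-housed replicate 1 having the fewest. The smallest member count in any library was 709 (Fa2h), which gives a counting error of 3.76%, far below the spread between libraries.

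Across the 6 libraries, each pair of members was closely correlated on the log2 CPM scale. Over the 36 pairs Pearson's r was 0.962 to 0.999 (median 0.99) and each pair had a Benjamini-Hochberg adjusted exact permutation p of 0.00556. Spearman's rho was 0.886 to 1, with adjusted exact permutation p of 0.0125 to 0.0333. Mog and Cnp had the highest r, and Mobp and Mal the lowest. Without the 2 libraries farthest from the median, r was 0.865 to 0.998, and on deviations from the mean of each housing group it was 0.963 to 0.999. Values of 1 library share its normalization and its tissue piece, so the pairs are not independent of each other.

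The share of each gene within the set was far steadier than its level. The SD of log2 CPM over the 6 libraries was 0.588 to 0.662 for the 9 genes. Relative to the mean log2 CPM of all 9, called the myelin level from here on, the SD was 0.0345 for Mbp, 0.0391 for Mog, 0.0412 for Mag and 0.0461 for Cnp. It was largest for Mobp (0.104), Mal (0.0852) and Fa2h (0.0808). Mobp was −0.15 from its mean ratio in single-housed replicate 3 and 0.15 above it in group-housed replicate 2, which are the 2 libraries with nearly the same myelin level. In single-housed replicate 1, Fa2h was 0.15 and Mobp 0.08 above their mean ratio, whereas Mal was −0.13 and Cldn11 −0.10 from theirs on the log2 scale.

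**Figure D2:**
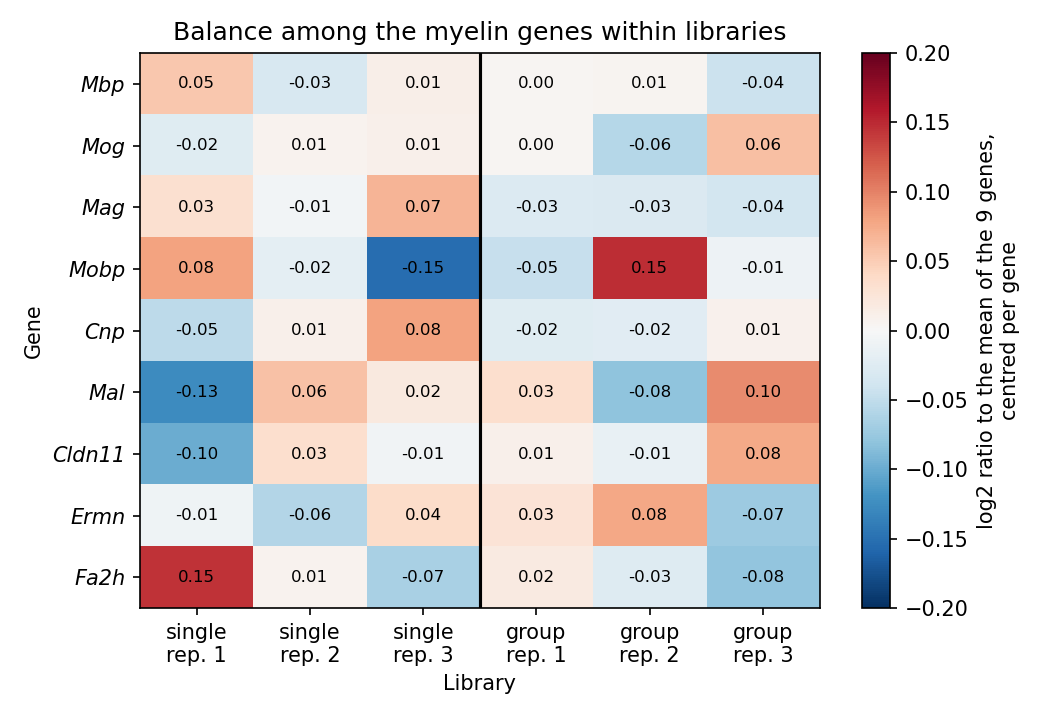
Log2 ratio of each myelin gene to the mean of the 9, centred on that gene's mean over the libraries (colour), for each gene (rows) and library (columns, single-housed left of group-housed). The deviations stay between −0.153 and 0.148, with Mobp furthest out in both directions.

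Each member was tested against the mean log2 CPM of the other 8 in a model that also held housing. The slope, the log2 change in a gene per log2 unit of the other 8, was 0.95 for Cnp and Ermn, 0.98 for Mag, 0.99 for Mobp, 1.02 for Mog and Mal and 1.09 for Fa2h, with Mbp and Cldn11 between Mobp and Mog. The slopes had an SE of 0.0585 to 0.0811. All 9 passed edgeR's quasi-likelihood test (adjusted p = 2.1e-05 to 6.91e-05, adjusted over all genes tested), against 2.39% of other genes called with a positive slope in the fit for Mbp, 2.43% for Mog, Cnp and Cldn11, 2.4% for Mag, 2.37% for Mobp and Fa2h, 2.45% for Mal and 2.38% for Ermn. The count was 9 without each library in turn. With Ppp1r1b as a further term, chosen after seeing the data, 9 of 9 were still called (adjusted p = 0.00297 to 0.0231), against 0.656% to 0.997% of other genes. In that fit the slopes spread from 0.69 (SE 0.142) for Mobp to 1.34 (SE 0.146) for Mal. Ppp1r1b was itself correlated with the myelin level (r = 0.905 on deviations from the housing means). Over 6 libraries a fit that holds both separates them poorly, here and in the lists below.

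Ppp1r1b encodes a dopamine- and cAMP-regulated inhibitor of protein phosphatase that is abundant in the projection neurons of the striatum and is also made in deep cortical layers. Its level was 426, 190 and 64.8 CPM in the single-housed libraries, against 214, 66.3 and 88.9 CPM in the group-housed libraries. Single-housed replicate 1 was highest, and the same 2 libraries were lowest as for the myelin genes. Its counts were 2024 to 13958, and it overlaps the antisense gene 1700003D09Rik by 164 exon bases, whose count was at most 69 in any library.

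The myelin level was 7.58, 7.53 and 6.46 log2 CPM in the single-housed libraries, against 7.95, 6.48 and 7.17 log2 CPM in the group-housed libraries. Its correlation with Ppp1r1b over the 6 libraries was r = 0.846 (exact permutation p = 0.0458) and rho = 0.943 (exact permutation p = 0.0167). Adjusted over the 10 relations computed (the myelin level and each member), these were 0.0712 and 0.0333, so that r did not pass the threshold of 0.05 and rho did. Without single-housed replicates 1 and 3, the libraries farthest from the median of Ppp1r1b, r was 0.946, and on deviations from the housing means it was 0.905. Leaving out single-housed replicate 2 or 3 or group-housed replicate 2 gave r of 0.841, 0.793 and 0.797, with exact permutation p of 0.125, 0.108 and 0.108. The largest gap between neighbouring libraries was 0.681 of a range of 1.49 in the myelin level and 1.09 of 2.72 in Ppp1r1b, and the libraries were not treated as separate clusters. Group-housed replicate 1 had the highest myelin level and single-housed replicate 1 the highest Ppp1r1b.

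**Figure D3:**
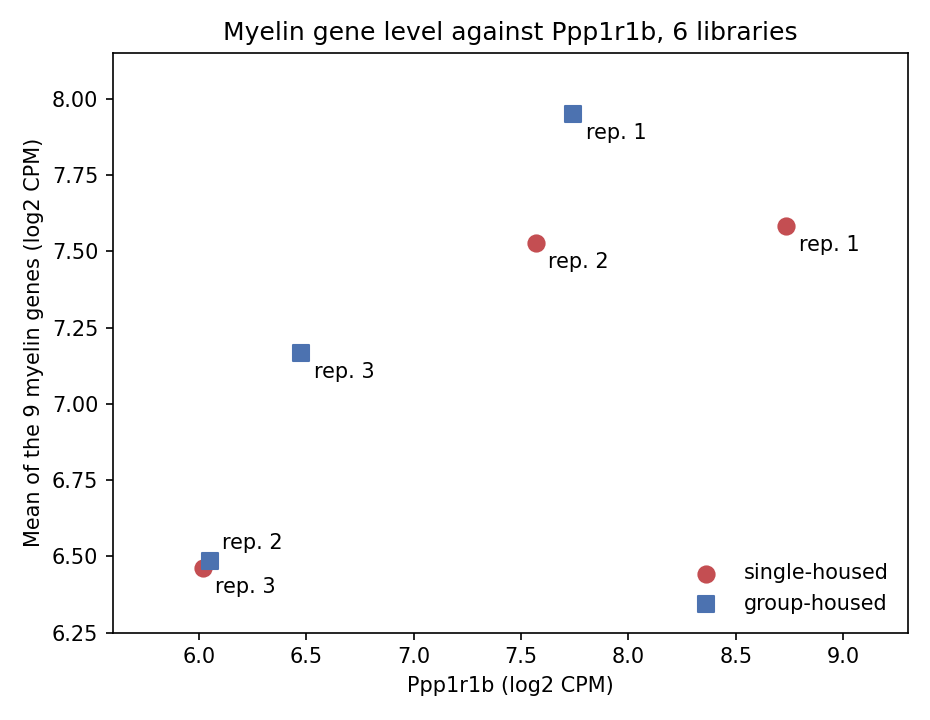
Mean log2 CPM of the 9 myelin genes (vertical) against log2 CPM of Ppp1r1b (horizontal), 1 point per library, coloured by housing and labelled by replicate. The points run upwards (r = 0.846), with single-housed replicate 3 and group-housed replicate 2 together at the low end.

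By gene, 7 of the 9 rose with Ppp1r1b in the model with housing (edgeR's quasi-likelihood test, adjusted over all genes tested). Over all genes but Ppp1r1b, the members included, 1.3% were called with a positive slope and 0.105% with a negative one. Fa2h had the steepest slope (0.61, SE 0.0855, adjusted p = 0.0118) and Mobp the smallest adjusted p (slope 0.58, SE 0.0751, adjusted p = 0.0078). Mbp (0.56), Mog (0.54), Mag (0.54), Ermn (0.53) and Cnp (0.51) also passed, with adjusted p of 0.0203 to 0.0467. Mal (0.52, SE 0.119, adjusted p = 0.0855) and Cldn11 (0.53, SE 0.108, adjusted p = 0.0575) did not pass. A doubling of Ppp1r1b thus went with a median log2 change of 0.54 in the myelin genes. The number of members called was 0 without single-housed replicate 3 or group-housed replicate 3, 1 without group-housed replicate 1 and 9 without single-housed replicate 1, with median slopes of 0.57, 0.55, 0.44 and 0.74.

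No member was called different by housing. The fitted log2 difference, single-housed minus group-housed, was −0.10 for Mal and Cldn11, −0.07 for Ermn, −0.06 for Mog, −0.05 for Mobp, −0.04 for Cnp, −0.03 for Mbp, 0.00 for Mag and 0.02 for Fa2h, with SE 0.362 to 0.405. By edgeR's quasi-likelihood test 0 of the 9 passed, where 0% of all 15258 genes tested were called. At an unadjusted p under 0.05 there were 0 of the 9 and 238 of the 15258, so few that 0 of 9 does not set the members apart. DESeq2 called 8 genes and limma-voom 0 in the whole table, and both called 0 of the 9. The groups overlapped for 9 of 9 members, and 4.86% of all genes had groups that did not overlap. The myelin level was 7.19 ± 0.632 log2 CPM when single-housed, against 7.20 ± 0.734 log2 CPM when group-housed (mean ± SD over 3 libraries a group), a difference of −0.01 (exact two-sided permutation p = 0.9, smallest possible 0.1). With SEs of this size a difference of moderate size was not detectable.

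The sign of the housing difference rested on single libraries. The member median was −0.05, beside 0.0015 over all genes, and leaving out single-housed replicate 3 gave 0.22, while leaving out group-housed replicate 1 gave 0.41. It was −0.33 without group-housed replicate 2, −0.23 and −0.18 without single-housed replicates 1 and 2, and −0.12 without group-housed replicate 3. With Ppp1r1b as a covariate the members' differences were −0.46 to −0.32 (median −0.39, SE 0.143 to 0.22). In that fit 0 of 9 passed, where 0 of all genes tested were called, so this count does not set the members apart. Ppp1r1b itself had a log2 difference of 0.88 (SE 0.625, adjusted p = 0.99994) by edgeR's quasi-likelihood test.

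**Figure D4:**
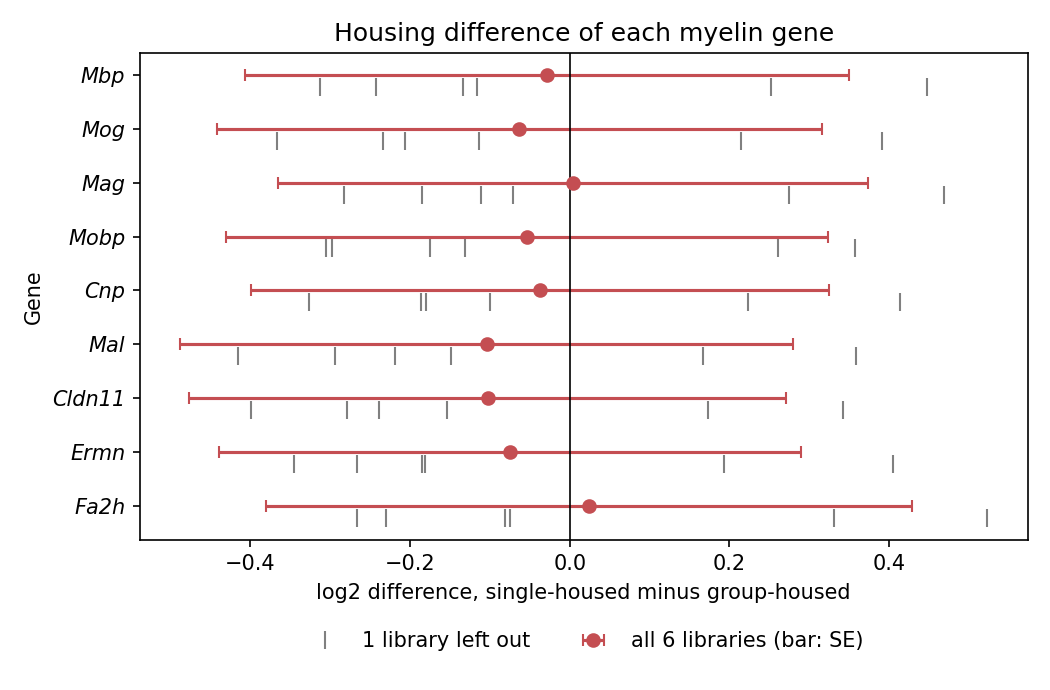
Fitted log2 difference between single-housed and group-housed libraries (horizontal, positive meaning higher in single-housed) for each myelin gene, with error bars of 1 SE. Grey ticks below each point mark the difference with 1 library left out. The 9 myelin genes sit between −0.10 and 0.02, each with an SE of 0.362 to 0.405 that spans 0.

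Other genes of mature oligodendrocytes moved with the members. Each gene outside the 9 was tested against the myelin level in the model with housing, and 363 of 15249 had a positive slope past the threshold (2.38%) and 133 a negative one (0.872%). Leaving out a library moved these 496 calls to 87 (group-housed replicate 1), 300 (single-housed replicate 2), 310 (group-housed replicate 2), 926 (single-housed replicate 1) and 1114 (single-housed replicate 3). Of 42 other myelin and mature oligodendrocyte genes, 40 rose with the myelin level and 0 fell, with a median slope of 0.84, beside 0.006 over all genes. Trf, the iron carrier transferrin, had a slope of 1.09 (SE 0.0624, adjusted p = 2.36e-05 by edgeR's quasi-likelihood test). It was at 360, 315 and 143 CPM in the single-housed libraries, against 425, 144 and 237 CPM in the group-housed libraries. The 2 of the 42 that were not called, named after their values were seen, were Pex5l (−0.01, SE 0.0586) and Enpp2 (0.02, SE 0.0593). With Ppp1r1b as a further term 29 of the 42 were called, where 0.8% of other genes were, and without group-housed replicate 1 it was 32.

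Some lipid genes followed the members too. Of 10 genes of myelin sphingolipid synthesis and transfer, 6 rose with the myelin level and 0 fell (median slope 0.56). Ugt8a, which makes galactosylceramide, had a slope of 0.91 (SE 0.065), Gltp, a glycolipid transfer protein, one of 0.61 (SE 0.0692), and Lass2, the older symbol of the ceramide synthase gene Cers2, one of 0.55 (SE 0.0679). The 4 that were not called, named after their values were seen, were Degs1 (0.14, SE 0.065), Kdsr (−0.02), Sptlc1 (0.03) and Sptlc2 (0.01), which encode enzymes of ceramide synthesis in all cells. With Ppp1r1b as a further term Ugt8a alone of the 10 was called, but the median slope was 0.51. In that fit Gltp had a slope of 0.59 (SE 0.158) and Lass2 one of 0.56 (SE 0.158), so their slopes moved little and their SEs were larger. Leaving out group-housed replicate 1 also left 1 gene called.

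Of 14 regulators, 6 rose with the myelin level and 0 fell (median slope 0.34). Sox10, which acts throughout the lineage, had a slope of 0.79 (SE 0.0703). It was at 58.6, 52.1 and 31.7 CPM in the single-housed libraries, against 71.3, 30.9 and 41.0 CPM in the group-housed libraries. Gm98, the older symbol of Myrf, the factor that switches on myelin genes, had a slope of 0.82 (SE 0.0865). Nkx6-2, a homeodomain factor of myelinating oligodendrocytes, had one of 1.10 (SE 0.13). With Ppp1r1b as a further term 4 were called, Sox10, Nkx6-2 and, named after their values were seen, Olig1 and Sox8. Gm98 was not among them, at a slope of 0.46 (SE 0.153, adjusted p = 0.144 by edgeR's quasi-likelihood test). Leaving out group-housed replicate 1 gave 2 calls. The slopes of Sox10 and Gm98 were below 1, and whether they differed from those of the members was not tested.

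Few genes of earlier stages of the lineage were called. Of 8 genes of committed and newly formed oligodendrocytes, 2 rose (median slope 0.18), Enpp6 (0.82, SE 0.11) and Rnf122 (0.62, SE 0.104), against 0 without group-housed replicate 1, 1 without group-housed replicate 2 and 3 without single-housed replicate 3. With Ppp1r1b as a further term neither passed, at slopes of 0.65 (SE 0.253) for Enpp6 and 0.82 (SE 0.237) for Rnf122. Gpr17, a receptor of the newly formed stage, had a slope of 0.18 (SE 0.0577, adjusted p = 0.136 by edgeR's quasi-likelihood test). Of 12 precursor genes 0 rose and 1 fell, Susd5 (−0.44, SE 0.0784), with a list median of 0.05. Susd5 had a slope of −0.45 (SE 0.188) with Ppp1r1b as a further term and did not pass. In that fit 1 other of the 12 fell, Xylt1, named after its value was seen. Its slope was −1.33 (SE 0.275, adjusted p = 0.0284 by edgeR's quasi-likelihood test), where 0.99% of other genes were called with a negative slope. Without that term, at an unadjusted p under 0.05, 2 of the 12 had a positive and 2 a negative slope. Of all genes outside the 9, 9.65% had a positive and 9.12% a negative one. Leaving out a library gave 0 calls (group-housed replicates 1 and 2), 2 (single-housed replicate 1) or 3 (single-housed replicate 3). The precursor genes Matn4 (0.41, SE 0.114) and C1ql1 (0.26, SE 0.112) did not pass. Summed over the 12, precursor genes were at 722 to 760 CPM in the single-housed and 707 to 755 CPM in the group-housed libraries. Most of this sum came from Cspg5 (335 to 400 CPM) and Ptprz1 (146 to 176 CPM), named after their values were seen. It therefore says little about the lower genes of the list. The 9 members summed to 1354 to 2926 CPM in the single-housed and 1355 to 3753 CPM in the group-housed libraries.

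Of 14 genes of the node and paranode, where axon and myelin meet, 1 rose and 0 fell (median slope −0.07), with 5 negative slopes at an unadjusted p under 0.05, where 9.12% of all genes had one. The number called was 0 without single-housed replicate 2 or group-housed replicate 1, and 3 and 5 without single-housed replicates 1 and 3. Cntn2, an adhesion protein made by axons and oligodendrocytes, had a slope of 0.37 (SE 0.0715), and 0.08 (SE 0.136) with Ppp1r1b as a further term, where it did not pass. In that fit 1 of the 14 fell, Kcnq3, named after its value was seen. Its slope was −1.34 (SE 0.211, adjusted p = 0.00934 by edgeR's quasi-likelihood test), where 0.99% of other genes were called with a negative slope. Without that term the axonal genes Nrcam (−0.22, SE 0.0683) and Cntnap2 (−0.28, SE 0.0874) did not pass. Among genes listed for peripheral myelin, Pmp2 had 0 counts in each library, where a count of 0 allows up to 3, and Prx had 51 to 75 counts. Drp2 was at 108 to 141 CPM, and neither it nor Prx was called.

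**Figure D5:**
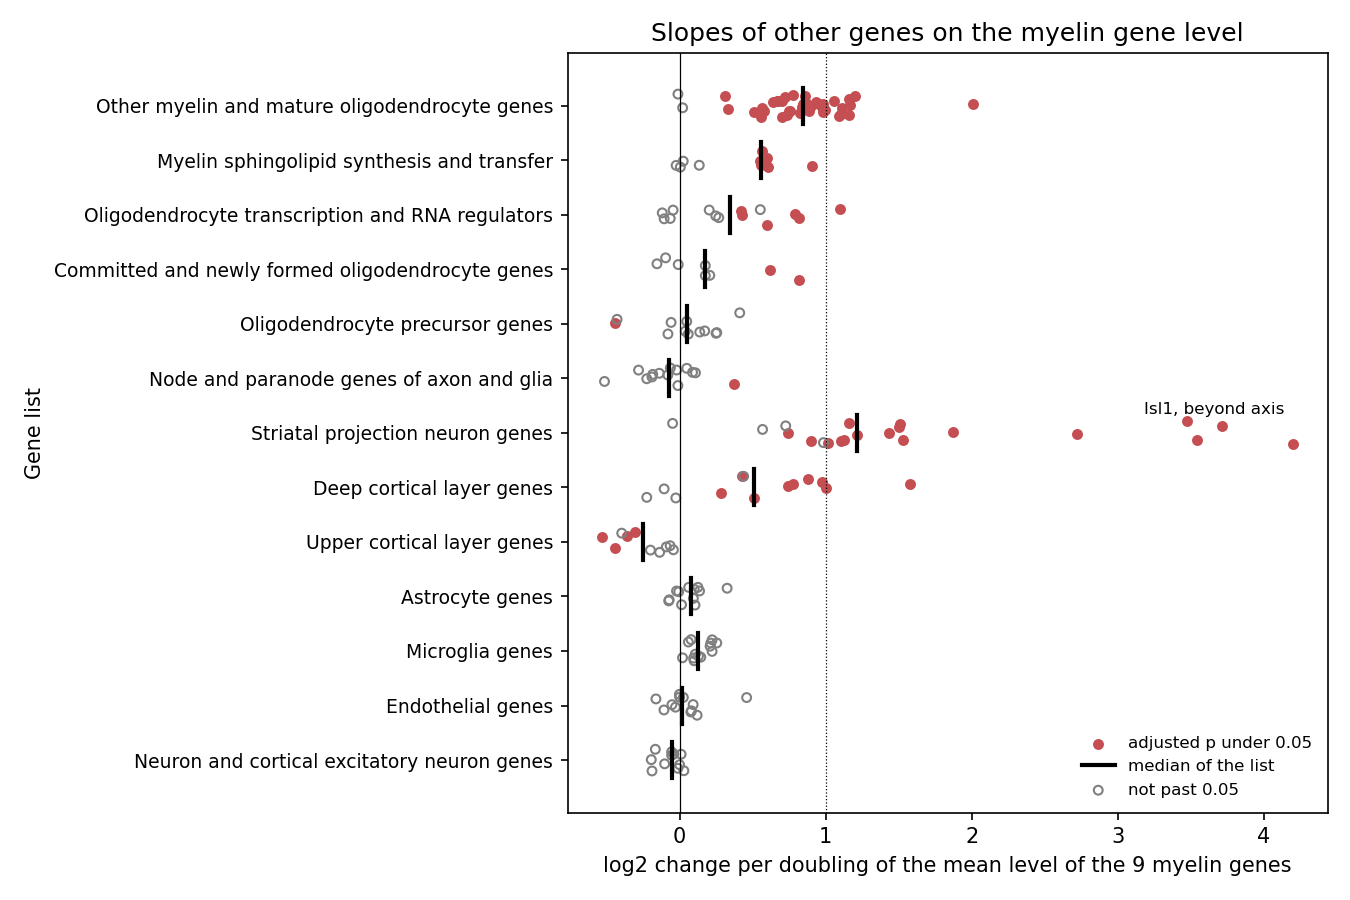
Slope on the myelin level, as log2 change per log2 unit (horizontal), for each gene of the lists (rows), with filled points for adjusted p under 0.05 and a bar at each list's median. Other mature oligodendrocyte genes centre on 0.84 and precursor genes on 0.05; the striatal gene Isl1 (slope 11.2) lies beyond the axis and is drawn at its edge.

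Genes of other cell types moved with the myelin level as well, and their part in the results above was not tested. Of 21 genes of striatal projection neurons, Ppp1r1b among them, 17 rose with the myelin level and 0 fell (median slope 1.21), and 4 were called with Ppp1r1b as a further term (median slope −0.02) and 5 without group-housed replicate 1. Drd2, a dopamine receptor of striatal projection neurons, was at 47.1, 17.3 and 0.87 CPM in the single-housed libraries, against 16.2, 1.01 and 2.57 CPM in the group-housed libraries, with a slope of 3.71 (SE 0.406). Isl1 had 0 counts in 3 libraries, so its fitted slope depends on the prior count.

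Deep cortical layer genes rose in 9 of 13 cases with 0 falling (median slope 0.51), and upper layer genes rose in 0 and fell in 4 of 10 (median −0.25). The deep genes not called in this fit were Rprm (0.44), Fezf2 (−0.11), Crym (−0.03) and Etv1 (−0.22). Foxp2, Bcl11b and Syt6 were called here and on Ppp1r1b too. With Ppp1r1b as a further term their slopes on the myelin level were 0.39, −0.10 and 0.17. These deep genes were named after their values were seen. Leaving out group-housed replicate 1 gave 3 deep and 0 upper layer genes, and leaving out single-housed replicate 2 gave 6 and 1. Ctgf, a marker of the deepest cortical layer next to the white matter, was at 33.2, 38.6 and 17.7 CPM in the single-housed libraries, against 47.3, 17.1 and 25.5 CPM in the group-housed libraries. Its slope on the myelin level was 0.97 (SE 0.0832) and it was 1.22 (SE 0.169) with Ppp1r1b as a further term. In that fit 4 of the 13 deep layer genes were called. The 4 upper layer genes called without that term, Rasgrf2, Cux2, Calb1 and Otof, were not called with it (adjusted p = 0.0858, 0.0741, 0.474 and 0.124 by edgeR's quasi-likelihood test), and 2 others, Mdga1 and Plxnd1, were. All but Rasgrf2 were named after their values were seen. The deep list summed to 445 to 615 CPM in the single-housed and 430 to 588 CPM in the group-housed libraries, and the upper list to 751 to 942 CPM in the single-housed and 646 to 944 CPM in the group-housed libraries. Rasgrf2, an upper layer gene, was at 174, 174 and 243 CPM in the single-housed libraries, against 140, 256 and 221 CPM in the group-housed libraries, the reverse of the myelin genes.

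Among lists of other glial, vascular and neuronal cells, 0 genes were called in either direction of 12 astrocyte, 13 microglia, 12 endothelial and 11 neuron genes by edgeR's quasi-likelihood test. At an unadjusted p under 0.05, 1 astrocyte, 4 microglia and 1 endothelial gene had a positive slope and 3 neuron genes a negative one, beside 9.65% positive and 9.12% negative over all genes. Slopes of either size were positive for 8 of 12 astrocyte, 13 of 13 microglia, 7 of 12 endothelial and 3 of 11 neuron genes. Over all genes they were positive for 7866 of 15249. The median slopes of these lists, in the same order, were 0.08, 0.13, 0.01 and −0.05. Gfap, an intermediate filament of astrocytes, had a slope of 0.33 (SE 0.0923, adjusted p = 0.0916 by edgeR's quasi-likelihood test). The endothelial gene Cldn5, named after its value was seen, had one of 0.46 (SE 0.111, adjusted p = 0.0515 by the same test). The neuron list, with cortical excitatory markers such as Slc17a7 at 1908 to 2169 CPM, summed to 15696 to 16852 CPM in the single-housed and 15461 to 17452 CPM in the group-housed libraries. Choroid plexus genes were at 3.75 to 8.13 CPM in the single-housed and 4.02 to 4.29 CPM in the group-housed libraries when summed, with Otx2 at 0 to 2 counts, and 1 of 6, Clic6, rose with the myelin level.

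Across 490 genes outside the 9 with a mean of at least 5 CPM and an SD of log2 CPM of at least 0.3, the 10 most like the myelin level over the 6 libraries included Aspa (r = 0.998), Gjb1, Prr5l, Plekhg3, Prr18, Cd82, Lpar1 and Tspan15 (r = 0.997). Aspa encodes aspartoacylase, which frees acetate from N-acetylaspartate, Gjb1 a connexin of myelin and Lpar1 a lysophosphatidic acid receptor. Aspa was at 19.4, 19.3 and 9.06 CPM in the single-housed libraries, against 25.7, 9.79 and 15.1 CPM in the group-housed libraries. Prr5l, Plekhg3, Prr18, Cd82 and Tspan15 were in none of the lists, and their slopes ran from 0.63 (Tspan15) to 0.92 (Prr18). The 5 genes most opposed were Scn7a (r = −0.991), C1galt1, Cdh7, Rasgrf2 and Tmem196 (r = −0.949). Scn7a, an atypical sodium channel gene, was at 4.40, 4.93 and 8.88 CPM in the single-housed libraries, against 3.50, 8.12 and 6.10 CPM in the group-housed libraries. Its slope on the myelin level was −0.84 (SE 0.107), and with Ppp1r1b as a further term it was −0.66 (SE 0.254) and did not pass. These genes were ranked over 6 libraries that share depth and tissue, and r is given as a description.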

How the data were processed

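Poly(A)-selected RNA was sequenced after isolation with a column kit (RNeasy) and stranded library preparation (TruSeq Stranded mRNA), per the labels' protocols. FastQC, STAR, featureCounts and mouse build mm9 are named in the submitters' processing notes; versions, annotation and strand setting are not given in these sources. The authors deposited raw counts, 1 column per library, without normalization. The deposited exon length per gene, per the file headers, was used for RPKM alone.

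Libraries were grouped by their housing label. Counts were filtered (filterByExpr, minimum count 10, minimum total count 15), scaled by TMM and tested in edgeR 4.0.16 (R 4.3.3) by its quasi-likelihood F-test, with Benjamini-Hochberg adjustment over all genes tested and a threshold of 0.05. Designs were housing alone, and housing with the centred log2 CPM (prior count 2) of Ppp1r1b, of the 9 members' mean, or of the other 8 members' mean. A further design, added after seeing the data, held housing, Ppp1r1b and 1 of these means together. With 6 libraries and closely correlated terms it separates Ppp1r1b from the myelin level poorly. Calls lost or gained in it were not tested as changes. SEs were derived from the F statistic. Correlations used all 720 pairings of 6 libraries. The fits were tested on simulated data. No pair of libraries agreed within sampling noise (chi-square per degree of freedom 8.21 to 38.8). Deviations from group means were correlated at r = 0.271, −0.319 and 0.170 for same-numbered libraries. For differently numbered ones r was −0.429 to 0.35. So few values cannot show whether replicate numbers mark a shared cage, litter or day, which the labels do not state.

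The members, lists and tests were chosen with earlier results of these data known. Named genes were the members and Ppp1r1b, the 10 genes most and 5 least like the members' mean (predicted names skipped), in each list on myelin, its lineage and the node the 3 genes with the smallest p, and Gfap, Ctgf and Drd2; some genes so named are not reported here. A list member is matched by symbol or by an older symbol. Alternatives were DESeq2 (1.42.0) and its size factors, limma-voom (limma 3.58.1), 2 other filters, other covariates, the replicate number as a block and leaving out each library. Promoter sequences are from RefSeq (GRCm38.p6), another build than the counts; windows of 4 of the 9 members are printed.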

Additional observations from a re-analysis of the deposited data

How the results depend on the processing

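The 9 members were called on the other 8 under each alternative tried. Calls on Ppp1r1b were less stable. Without 1 library at a time 0 to 9 members (46 to 440 genes) were called, with median slopes of 0.44 to 0.74. No housing term gave 4 members. The replicate number as a block gave 0 members, 13 genes and a median slope of 0.77. Whether the numbers pair the libraries is not known from the labels. DESeq2 called 372 genes on Ppp1r1b and 8 for housing (0 to 1 by edgeR without 1 library). The correlation was 0.793 to 0.959 without 1 library and 0.835 with the striatal list mean (exact permutation p = 0.0542).

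Genes called on the myelin level numbered 87 to 1114 without 1 library and 273 with Ppp1r1b as a covariate. That covariate gave 1 lipid, 0 newly formed, 1 precursor, 1 node, 4 striatal, 4 deep layer and 2 upper layer genes. No housing term gave 10 striatal genes. Without 1 library the lists had 32 to 40 (other mature), 1 to 6 (lipid), 2 to 7 (regulators), 0 to 3 (newly formed), 0 to 3 (precursor), 0 to 5 (node), 5 to 20 (striatal), 3 to 10 (deep) and 0 to 6 (upper) genes called.

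Housing differences changed sign. The myelin level differed by −0.37 to 0.37 without 1 library and by 0.00077 for summed CPM, and the member median by −0.33 to 0.41. Without 1 library the ranges were −0.31 to 0.45 for Mbp, −0.37 to 0.39 for Mog, −0.28 to 0.47 for Mag, −0.31 to 0.36 for Mobp, −0.33 to 0.41 for Cnp, −0.42 to 0.36 for Mal, −0.40 to 0.34 for Cldn11, −0.35 to 0.41 for Ermn and −0.27 to 0.52 for Fa2h. Limma-voom gave 0.012 for Mbp and 0.016 for Cnp, and the replicate block 0.0027 and 0.0037. Ppp1r1b and the striatal list mean as covariates gave −0.32 and −0.40 for Mag, −0.38 and −0.46 for Fa2h and −7.9e-05 and −0.12 for Ppp1r1b. The causes were not tested. With 3 libraries a group, depth was not the limit for these genes; the spread between libraries was.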
